A study of Mus musculus with 9 samples.

Results

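The mineralocorticoid receptor (MR) sites described here are the genomic regions at which MR peaks were called after corticosterone (CORT) and not after vehicle. Peaks after CORT were joined to peaks after vehicle when they shared at least 1 bp, and peaks over coding exons of Nr3c1 and Nr3c2, the genes of the glucocorticoid receptor (GR) and of MR, were left out because the transfected plasmids carry those sequences. Of 14638 MR peaks after CORT, 14567 were gained in this sense (99.5%). Another 60 overlapped a vehicle peak, 30 lay in receptor coding exons, and 11 of those 30 had no vehicle peak.

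Binding was measured by ChIP-nexus, in which precipitated DNA is digested from its 5′ ends until the bound protein stops the exonuclease, in N2A cells, a mouse neuroblastoma line. Cells of every group were transiently transfected with eGFP-GR and mCherry-MR and kept in charcoal-stripped serum. The groups used here were MR precipitated through its red fluorescent tag after vehicle, MR after 100 nM CORT for 20 min, and the input chromatin of each of these treatments, which was sequenced without precipitation. GR precipitated after the same CORT treatment was used only to ask which MR sites also carried a GR peak. A GR peak is said to cover an MR site when it shared at least 1 bp with the MR peak. The labels describe the receptors as mouse, and the methods of the study as rat. According to the methods N2A cells make no MR of their own and some GR, so the sites are those of an overexpressed tagged MR beside a co-expressed tagged GR. The 3 replicates of a condition were pooled before peaks were called, which leaves 1 list per condition. No spread between replicates could be given from these lists, no test was made, and every comparison is between these pooled libraries. The study also called peaks in single CORT replicates, and reports that far fewer MR sites recurred between replicates than the pooled list holds. Which gained sites recurred cannot be told from the pooled list. The peak and border files hold no read counts, and the read totals that the study gives per treatment were not used here. The 95% Wilson intervals below cover counting error over peaks only. They hold no expression values either, so the cell type could not be checked against marker genes.

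MR is a ligand-activated transcription factor of the steroid receptor family. It binds both aldosterone and the glucocorticoid corticosterone, moves into the nucleus with hormone, and recognises the same palindromic glucocorticoid response element (GRE) as GR. In neurons, where the enzyme that inactivates corticosterone is mostly lacking, MR is occupied by glucocorticoids. In kidney epithelium it is known for raising sodium reabsorption.

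The sequences under gained sites are shown first for the sites that the results below turn on. A GRE was scored as AGAACA, then 3 free bases, then TGTTCT, on either strand, with up to 3 mismatches over its 12 fixed positions and its centre within the 100 bp to each side of the peak summit. Each line gives 30 bases of the plus strand of GRCm38 from RefSeq, with the 15 positions of the best matching GRE in capitals. The first 4 come from promoter sites with a GRE among the strongest promoter peaks, and show how far a strong site can depart from the full palindrome.
Pmm1 promoter, chr15:81960310-81960339: tctgcctGGAACGCCGCGTTCTcacgctag
Nfkbia promoter, chr12:55492015-55492044: gccgcccGGAACGCCCTGTACTtcccctcg
Lcn2 promoter, chr2:32388269-32388298: gaagaacAGGACACCCTGTTCTgagcctgc
Cdkn1a promoter, chr17:29094692-29094721: tttggcgGGCACAGTATGTTCCcagggaac
The next 4 are from strong gained sites away from promoters, the first of which is the strongest of all.
Upstream of Rab4a, chr8:123786461-123786490: acccagcAGGACAGAACGTTCTctgttgaa
Ddc intron, chr11:11844616-11844645: gttggccAGGACATTCAGTCCTtggcctga
Fkbp5 intron, chr17:28512886-28512915: ctttgctGGAACACAAGGTACTgcaccgtc
Downstream of the Banp start, chr8:122112795-122112824: tgaagccAGGACATCCTGTTCCgtggttct
The last 6 hold a GRE with 0 mismatches (Fkbp5, P4ha2) or 1 mismatch. They were picked from 23 gained sites with 0 mismatches and 273 with 1, and their genes do not stand for the rest. Fkbp5, Per1, Th, Pnmt and Stk39 are on the gene lists read below, Stk39 among the sodium and potassium transport genes. P4ha2 encodes a collagen hydroxylase. The strongest site of the ribosomal protein gene Rpl27 also had a GRE of 1 mismatch and is not shown.
Fkbp5 intron, weaker site, chr17:28420314-28420343: agagcacAGAACACCCTGTTCTgaatgtgg
P4ha2 intron, chr11:54113178-54113207: acagctcAGAACAGGCTGTTCTgcctgctt
Per1, near its start, chr11:69099409-69099438: tcaggctGGAACATCCTGTTCTcagcgcta
Th, chr7:142918830-142918859: aggctacAGCACACAGTGTTCTccccaggg
Pnmt promoter, chr11:98386082-98386111: agaggccAGAACAGAGTGTCCTttctggag
Stk39 intron, chr2:68372000-68372029: ctctgacAGAACACAGTGTACTtatacaaa

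After vehicle only 73 MR peaks were called. Of these, 19 lay in receptor coding exons, 9 in Nr3c1 and 10 in Nr3c2. The other 54 comprised 19 on unplaced scaffolds and 35 on chromosomes 1 to 19, X and Y. An input border pair, the pair of opposite exonuclease stops that the MACE program reports in chromatin that was not precipitated, lay under 26 of the 54 (48.1%, interval 35.4 to 61.1). The strongest of the 54 lay 450902 bp from the start of Tnc, in intergenic DNA at chr4:64497899-64497934. Others lay in introns of annotated genes, with Helz, Plpp1 and Lgsn as the nearest protein-coding starts at 4048, 25344 and 46440 bp. CORT peaks overlapped 41 of the 54. A GRE was found at 3 of the 35 on placed chromosomes (8.57%, interval 2.96 to 22.4). By contrast, input border pairs lay under 59 of the 14567 gained peaks (0.405%, interval 0.314 to 0.522). Only 10 gained peaks lay within 500 bp of a vehicle peak.

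The strength of a peak is given as −log10 p, the significance that the peak caller MACS2 assigned to it against input. This value grows with sequencing depth, so it ranks peaks within the CORT list and is not an amount of binding. Among gained peaks it ran from 4.56 to 60.2 with a median of 9.17 and quartiles of 7.42 and 11.98. There were 187 gained peaks above 30. Many peaks shared a value, with 1372 distinct values in all. The peaks were narrow, with a median width of 62 bp and a range of 34 to 801 bp.

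Most gained sites lay in introns, and most lay more than 5 kb from a protein-coding start, each trait counted by itself. Introns held 4271 of the sites between 5 and 50 kb and 2416 of those more than 50 kb away. Of the 14509 gained peaks on placed chromosomes, 1117 had their summit within 1 kb of the start of a protein-coding transcript (7.70%, interval 7.28 to 8.14), and these are called promoter sites. A further 1896 lay between 1 and 5 kb (13.1%), 7057 between 5 and 50 kb (48.6%), and 4439 more than 50 kb from every such start (30.6%, interval 29.9 to 31.3), the distal sites. These shares depend on which starts are counted: with the starts of all annotated genes, noncoding ones included, the promoter share was 13.1% and the distal share 8.96%, so that promoter sites outnumbered distal ones. By annotation 8418 summits lay in introns (58.0%), 4959 between genes (34.2%), 352 in coding exons, 360 in untranslated regions and 420 in other exons. The median −log10 p was 9.17 in each class, a value that many peaks share. Peaks above 30 were a larger share of promoter sites, 24 of 1117 (2.15%, interval 1.45 to 3.18), than of distal sites, 47 of 4439 (1.06%, interval 0.797 to 1.41), with 1.27% and 1.30% in the classes between. With the gained peaks split by strength into 5 equal groups, the promoter share was 8.42% (interval 7.46 to 9.48) in the strongest group and 7.13% (interval 6.25 to 8.13) in the weakest, and these intervals overlap.

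Counts of gained summits were highest beside the start itself. The 250-bp step just upstream of starts held 182 summits and the step just downstream held 183, against 38 to 69 per step between 2 and 5 kb away. Summits on the upstream side, at the start included, numbered 559, and those downstream numbered 558. Within 100 bp of a start lay 167 summits and within 250 bp lay 366. The counts were not divided by the amount of sequence that lies at each distance from its nearest start. The part of this in the pattern was not tested. Promoter sites were found at 994 protein-coding genes.

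**Figure D1:**
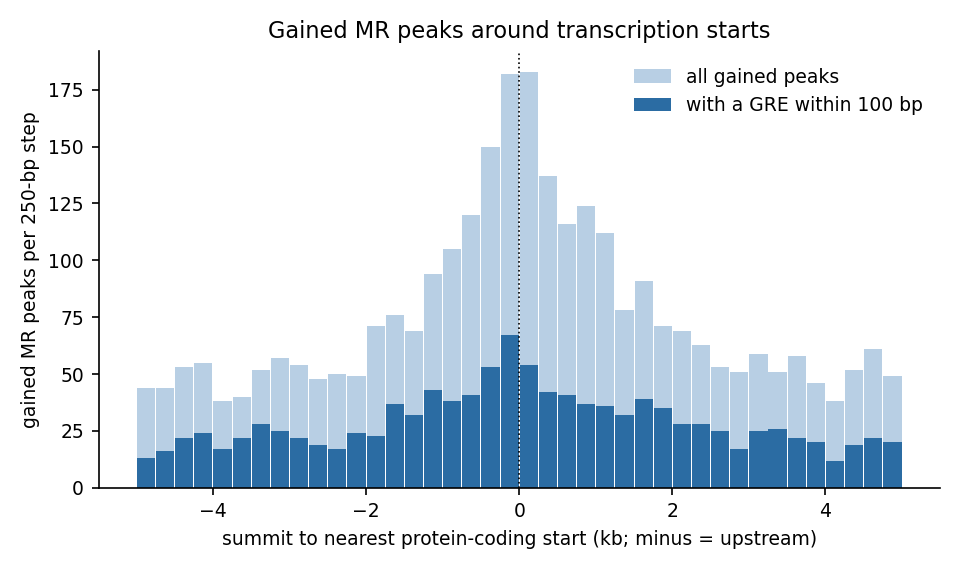
Gained MR peaks per 250-bp step by the distance in kb from the summit to the nearest protein-coding transcript start, with upstream to the left; light bars are all gained peaks and dark bars those with a GRE within 100 bp. Both kinds of bar are tallest beside the start, where the steps to either side hold 182 and 183 peaks.

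GREs marked gained sites in every location class, and less often at promoters. A GRE lay within 100 bp of the summit at 5803 of 14509 gained peaks (40.0%, interval 39.2 to 40.8), against 15.2% (interval 14.8 to 15.6) in equally long windows 1 kb to either side. The share was 33.4% (interval 30.7 to 36.2) at promoter sites and 41.0% (interval 39.6 to 42.5) at distal sites, and these intervals do not overlap. Promoter windows as a whole hold few GREs, with 7.15% in windows centred on all 21938 protein-coding starts and 12.98% in windows 1 kb from the promoter summits. The share at promoter sites was also the lowest of the classes when up to 4 mismatches were allowed (77.2%, against 82.0% to 83.7% elsewhere). With up to 2 mismatches it was 9.22%, against 11.4% to 12.1%, and the intervals of the promoter and distal classes overlap (7.66 to 11.1 and 10.5 to 12.4). Windows 1 kb from the promoter summits held 48.0% with up to 4 mismatches and 1.39% with up to 2. Promoter sites close to the start and further from it were alike, with 33.1% within 250 bp and 33.6% from there to 1 kb.

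Stronger sites had more and better centred GREs. The share with a GRE was 46.4% (interval 44.6 to 48.2) in the strongest of the 5 groups and 36.1% (interval 34.4 to 37.9) in the weakest. The median distance from summit to the centre of the GRE was 13 bp in the strongest group and 24 bp in the weakest, and 18 bp over all sites. Median peak width fell over the same groups from 124 to 53 bp. Promoter sites with a GRE had it at a median of 15 bp and distal sites at 19 bp.

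A full palindrome was rare. It was found at 23 gained sites, of which 0 were promoter sites and 6 were distal, with −log10 p from 4.97 to 31.4 and a median of 9.82. The strongest lay in an intron of P4ha2, the collagen prolyl hydroxylase subunit, and the next lay 47045 bp downstream of the St3gal5 start. The weakest lay in an intron of Tshz2. Sites with 1 mismatch numbered 273, with 2 mismatches 1372 and with 3 mismatches 4135, so most sites counted as having a GRE matched 9 of the 12 fixed positions. A GR peak after CORT covered 14 of the 23.

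Other motifs were counted in the same windows on both strands. AP-1 (TGACTCA) was found at 7.84% of gained sites (interval 7.41 to 8.29) and in 3.95% of the windows to the sides, and CRE (TGACGT) at 3.52% and 1.82%. The NF-1 palindrome TTGGC, 5 free bases, GCCAA with up to 2 mismatches was found at 8.62% and in 6.30%, and the GATA motif AGATAA at 12.6% and in 10.6%. None of these pairs of intervals overlapped. The CCAAT box (CCAAT) was the exception in direction, at 19.7% (interval 19.1 to 20.4) of gained sites against 22.9% (interval 22.4 to 23.4). A match is a stretch of letters and not a bound factor.

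Promoter sites differed from distal sites in the motifs of GC-rich starts. A GC box (GGGCGG) was found at 20.8% of promoter sites (interval 18.5 to 23.2) and 3.09% of distal sites, against 40.0% of all protein-coding starts and 12.8% of windows 1 kb from the promoter summits. The ETS motif (CCGGAA) was found at 10.03% of promoter sites (interval 8.40 to 11.9) and 3.18% of distal sites, against 15.0% of starts. For GATA the order was the other way, with 7.70% at promoter sites (interval 6.28 to 9.41) and 14.1% at distal sites (interval 13.1 to 15.1). The E-box CACGTG was found at 5.10% of promoter sites and 3.09% of distal sites. Median GC content was 54.7% at promoter sites, 48.8% at distal sites, 46.8% in the windows to the sides and 58.7% at starts, and the part of base composition in these motif shares was not tested.

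**Figure D2:**
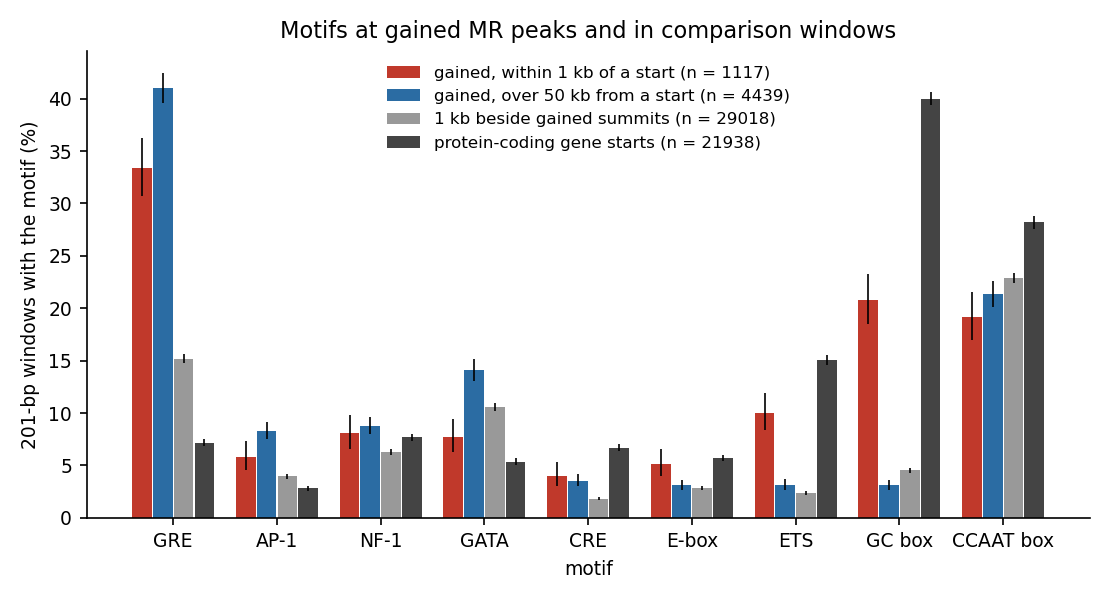
Share of windows reaching 100 bp to each side of their centre, in percent, that hold each of 9 motifs at promoter sites, distal sites, windows 1 kb beside gained summits and protein-coding starts; lines are 95% Wilson intervals. The GRE stands at 33.4% and 41.0% in the site classes and at 15.2% and 7.15% in the comparison windows, and GC boxes are most frequent at starts (40.0%).

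GR peaks after CORT covered 47.4% of gained MR sites (interval 46.6 to 48.2). The share was higher at promoter sites, 55.5% (interval 52.6 to 58.4), than at distal sites, 45.7% (interval 44.2 to 47.2), with 48.8% and 47.0% in the classes between. Both receptors were expressed in the same cells and their libraries were called against the same input.

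The 12 strongest gained sites were mostly intronic. By the annotation 9 lay in introns, 1 of the 12 was a promoter site, 7 had a GRE, and all 12 were covered by a GR peak and held 1 or 2 MR border pairs. None of the 12 lay over an input border pair. The strongest, with −log10 p of 60.2, lay at chr8:123786258-123786585, 19537 bp upstream of the start of Rab4a, a GTPase of recycling endosomes. It is called intronic only through Gm20388, a read-through gene that spans many others, and its GRE has 2 mismatches. The next lay at chr5:137671797-137672089 in Agfg2 (55.5) and had no GRE within the limit, with 4 mismatches at best.

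The other strong sites lay in or upstream of genes with varied roles. A site of 54.4 lay in Col4a2, a chain of basement-membrane collagen, 69286 bp from the nearest start, and a site of 53.3 lay 11358 bp upstream of Mmp19, a matrix metalloproteinase. Ddc, the decarboxylase that makes dopamine and serotonin, held a site of 51.7, and so did Macrod1, an enzyme that removes ADP-ribose. Pak6, a kinase of the p21-activated family, had a site of 50.9 at 7960 bp upstream of its start. Ptpa, an activator of protein phosphatase 2A, held one of 49.998 in an intron at 2827 bp from its start. The list closed with Fkbp5 (49.7), a coding exon of the channel subunit gene Cngb1 (49.6) and Map1b (48.3), which encodes a microtubule-binding protein of growing neurites. Neither Macrod1, Pak6, Ptpa nor Map1b had a GRE within the limit, although the Ptpa and Macrod1 best matches, with 4 and 5 mismatches, were centred 1 bp from the summit.

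The strongest promoter sites were at Pmm1, Kctd17, Nfkbia, Ccng1, Crispld2, Gm16223, Rnaseh2a, Lcn2, Thra and Cdkn1a, and a GR peak covered each of the 10. Pmm1, a phosphomannomutase, had a site of 54.7 at chr15:81960253-81960458, 516 bp into the gene. Kctd17, an adaptor of a ubiquitin ligase, had one of 44.9 centred 12 bp upstream of its start with no GRE within the limit. Nfkbia, the inhibitor of NF-kappaB and a textbook glucocorticoid target, had one of 44.5 at chr12:55491880-55492164, 628 bp from its start. These sites lay at or just inside the first part of the gene.

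The other promoter genes had varied roles. Ccng1, a cyclin of the p53 response, had a site of 43.1 at 147 bp upstream, and Cdkn1a, the cell cycle inhibitor p21, one of 36.7 at 937 bp downstream, both with a GRE of 3 mismatches. Thra, the thyroid hormone receptor alpha gene, had a site of 36.7 at 825 bp downstream. Lcn2, an iron-binding lipocalin of the acute phase, had the best GRE of the 10, with 1 mismatch centred 1 bp from the summit and 30 bp upstream of its start, in a peak of 38.04. Crispld2 (43.1) and Rnaseh2a (38.5) had none within the limit, and Gm16223 (40.4) had one of 3 mismatches. Altogether 6 of the 10 had a GRE.

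The strongest distal sites were the one in Col4a2 and sites in Vat1l (47.8), Tshz2 (46.0) and Igf1r (46.0), and one 121201 bp downstream of the Banp start (43.5). The Igf1r gene, which encodes the receptor of insulin-like growth factor 1, held its site at chr7:68030892-68031250, 78387 bp from its start. Tshz2, a zinc-finger transcription factor, held its strongest site in a noncoding exon 76584 bp from the start. Only the Col4a2 site and the one downstream of the Banp start had a GRE within the limit, 84 bp and 4 bp from the summit. A GR peak covered all 5.

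Gained sites were spread over a large share of genes. Of 22028 protein-coding genes, 4489 (20.4%) had a gained summit inside them or within 5 kb, and 994 (4.51%) had one within 1 kb of a start. The chance of holding a site followed gene length, from 8.65% of the shortest of 5 equal groups of genes to 41.3% of the longest. At least 2 gained sites were found at 2092 genes, at least 5 at 510, at least 10 at 127 and at least 20 at 19. The median of the strongest site per gene was 10.6.

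The genes with the most gained sites, leaving out genes that hold other protein-coding genes, were long ones. Gse1 had 89, the highest density of the 10 at 24.5 per 100 kb, and its strongest was 41.5. Slit3, a secreted guidance cue for axons, had 52, with 8.71 per 100 kb and a strongest of 26.2. Frmd4a, a scaffold of cell polarity, had 36. The others were Prkca (26), a protein kinase C, Pard3 (26), a polarity protein, Rere (25), Pcbp3 (24), Camk1d (24), a calcium-dependent kinase, Wwox (22) and Stox2 (21). Of these 10, Gse1, Frmd4a and Prkca had a promoter site. Input border pairs in each of the 10 genes and their 5-kb surroundings numbered 0 to 5 after CORT and 0 to 4 after vehicle, with 0 and 1 in Gse1. Gse1, Pard3, Wwox and Stox2 lie on chromosome 8. That chromosome had the highest density of gained peaks, 12.1 per Mb, and of input pairs, 9.97 per Mb after CORT. The part of this in the counts of these genes was not tested.

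Among 26 glucocorticoid-induced regulators, 14 had a gained site (53.8%, interval 35.5 to 71.2) and 6 a promoter site (23.1%). The shares of all protein-coding genes were 20.4% and 4.51%. Fkbp5, a co-chaperone that lowers hormone affinity of the receptors, led with 49.7, then Nfkbia (44.5), Hif3a (41.8), a hypoxia-factor subunit, and Lcn2 (38.04). Per1, a clock repressor, had 1 site, of 15.1 at 470 bp from its start, with a GRE of 1 mismatch. Tsc22d3, the glucocorticoid-induced leucine zipper, had 1 site of 7.42, which was 24882 bp from its start. Klf9, Klf15, Mt1, Mt2, Pdk4 and Angptl4 were among the 12 with none. The median gene length of this list, 12.8 kb, is below the 17.3 kb of all protein-coding genes.

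Genes of aldosterone-responsive sodium and potassium transport had a gained site at 11 of 16 (68.8%, interval 44.4 to 85.8), against 20.4% of all genes. A promoter site was found at 3 (18.8%, against 4.51%). Wnk4, a kinase that controls the sodium-chloride cotransporter, had one of 19.3 at 14 bp from its start. Usp2, a deubiquitinase, followed with 16.5, Scnn1b, the beta subunit of the epithelial sodium channel, with 14.9 for the strongest of 6, and Slc12a3, the cotransporter itself, with 12.96. Hsd11b2, the enzyme that inactivates corticosterone, had a promoter site of 9.44. The other channel subunits, Scnn1a and Scnn1g, had strongest sites of 8.44 and 4.76. Nedd4l, Kcnj1 and Klhl3 were among the 5 with none. The median strongest site of the genes with any was 9.44, below the 10.6 of all genes with a site, and the median gene length of 31.3 kb was above that of all genes.

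Catecholamine genes had a gained site at 7 of 15 (46.7%, interval 24.8 to 69.9), against 20.4% of all genes. A promoter site was found at 2 (13.3%, against 4.51%). After Ddc (51.7) came Slc18a1, a vesicular monoamine transporter, with 31.4 for the strongest of 4, which lay nearer the start of Atp6v1b2. Th, tyrosine hydroxylase and the rate-limiting enzyme of the pathway, had 5 sites, the strongest of 26.2 at 12284 bp from its start over a GRE of 1 mismatch. Pnmt, which makes adrenaline, had 3, the strongest of 20.0 at 352 bp from its start and 2 bp from a GRE of 1 mismatch. Dbh, Slc6a2, Maoa and Maob were among the 8 without a site. The median strongest site of the 7 was 20.0 and the median gene length of the 15 was 35.5 kb.

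Synaptic vesicle release genes had a gained site at 11 of 18 (61.1%, interval 38.6 to 79.7), against 20.4% of all genes. A promoter site was found at 2 (11.1%, against 4.51%). The calcium sensors Syt1 and Syt2 each had a strongest site of 24.5, among 8 and 5 sites. Cplx1, a complexin, followed with 14.9 and Syn2, a synapsin, with 11.98. Snap25, Stx1a, Syp and Syn1 were among the 7 with none. The median gene length of the list was 39.4 kb, and the part of length in its count was not tested.

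Genes of the AP-1 family had a gained site at 9 of 13 (69.2%, interval 42.4 to 87.3), against 20.4% of all genes. Mafk, Atf3 and Maff had a promoter site (23.1%, against 4.51%). The strongest were Mafk (31.4, at 88 bp from the start), Atf3 (13.97), Maff (13.6) and Fosl2 (13.4). Fos, Fosb, Fosl1 and Batf had none. The MAP kinase phosphatases had one at 6 of 10, led by Dusp4 (29.6), Dusp6 (24.5), Dusp2 (16.5) and Dusp1 (10.6), with a promoter site only at Dusp6. The median gene lengths of these lists, 11.1 and 12.96 kb, were below that of all genes.

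Clock genes had a gained site at 7 of 19 (36.8%, interval 19.1 to 59.0) and a promoter site at 3 (15.8%), against 20.4% and 4.51% of all genes. Promoter sites were found at Per1 (15.1), Per2 (14.9) and Clock (11.98), and Hlf and Cry2 also reached 11.98. Arntl, Cry1, Per3 and Dbp were among the 12 without a site. Transcription factors of sympathetic neuroblasts had a gained site at 5 of 14 (35.7%, interval 16.3 to 61.2). Among them were Klf7 (19.6), Gata3 (12.5), the only one of the 5 with a promoter site, and Hand1 (9.05). Mycn and Hand2 were among the 9 with none. The median gene length was 35.1 kb for the clock list and 7.07 kb for the neuroblast list, against 17.3 kb for all protein-coding genes. The part of length in these counts was not tested.

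The remaining lists had shares near or below the 20.4% of all genes, and their median gene lengths, 12.3 kb for chaperones, 10.5 kb for liver targets and 3.68 kb for ribosomal proteins, were below that of all genes. Steroid receptor chaperones had a gained site at 2 of 15, Fkbp5 and St13, and the site at St13 (9.17) lay 41 bp from the start of the neighbour Xpnpep3. Liver glucocorticoid targets had one at 2 of 12, Gpt (9.85), whose site lay nearer the start of Mfsd3, and Agt (8.13), while Tat, Pck1 and G6pc had none. Cytosolic ribosomal protein genes had one at 6 of 40, led by Rpl27 (19.6), Rpl35 (14.9), Rplp2 (11.98) and Rps14 (9.17), and the first 3 of these sites lay nearest to Ifi35, Wdr38 and Pnpla2. No expression was measured in these files, so a site near a gene is a position and not a sign of regulation.

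**Figure D3:**
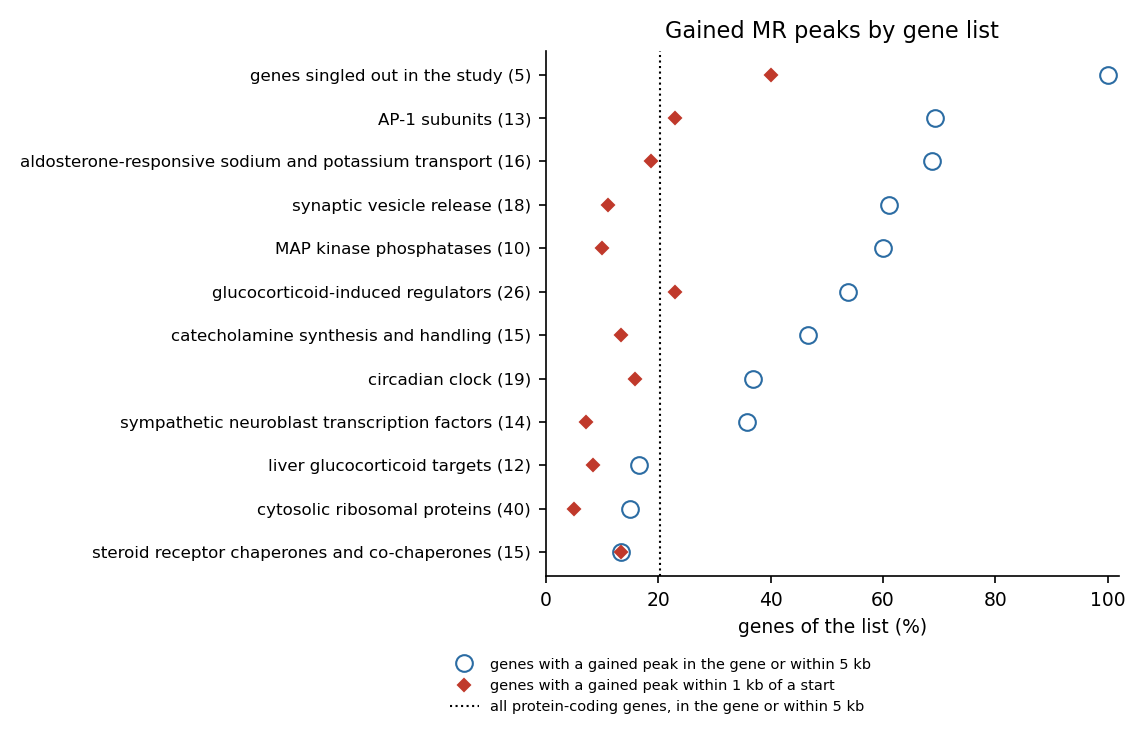
Share of the genes of each list, in percent, with a gained MR peak in the gene or within 5 kb (open circles) or within 1 kb of a start (diamonds) with the list size in brackets; the dotted line is the 20.4% of all protein-coding genes for the wider distance. The circles run from 2 of 15 chaperone genes to 5 of 5 genes singled out in the study, a list chosen on these samples.

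Fkbp5 and the genes also assayed by qPCR (Ddc, Syt2, Dusp4 and Sgk1), a set chosen on these samples, all had gained sites. Fkbp5 had 15 in the gene or within 5 kb, with −log10 p from 6.28 to 49.7 and a median of 13.4. A GRE was found at 8 of them and a GR peak at 12. The strongest, at chr17:28512535-28513174, lay in an intron 1554 bp upstream of the nearest annotated Fkbp5 start. The only one within 1 kb of a start, at 663 bp upstream, had a strength of 19.3 and a GRE of 3 mismatches 1 bp from its summit. The full GRE of the gene lay under a weaker site of 15.1 in another intron, at chr17:28420297-28420392, 40 bp from the summit.

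Ddc had 8 gained sites, from 5.31 to 51.7, and its second site of 19.6 at chr11:11865246-11865497 had a GRE of 2 mismatches 63 bp from the summit. A GR peak covered 4 of the 8. Syt2 had 5, the strongest of 24.5 at chr1:134704651-134705073 in an intron, without a GRE within the limit. One Syt2 site, of 13.4, lay 418 bp from a start. Dusp4, a nuclear MAP kinase phosphatase, had 3 in 1 intron, of 29.6, 16.5 and 8.60, all without a GRE within the limit. Sgk1, a kinase that aldosterone and glucocorticoids induce in many tissues, had only 2, of 9.34 at 9954 bp and of 7.83 at 24236 bp from its nearest start, and neither had a GRE. A GR peak covered both Sgk1 sites.

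**Figure D4:**
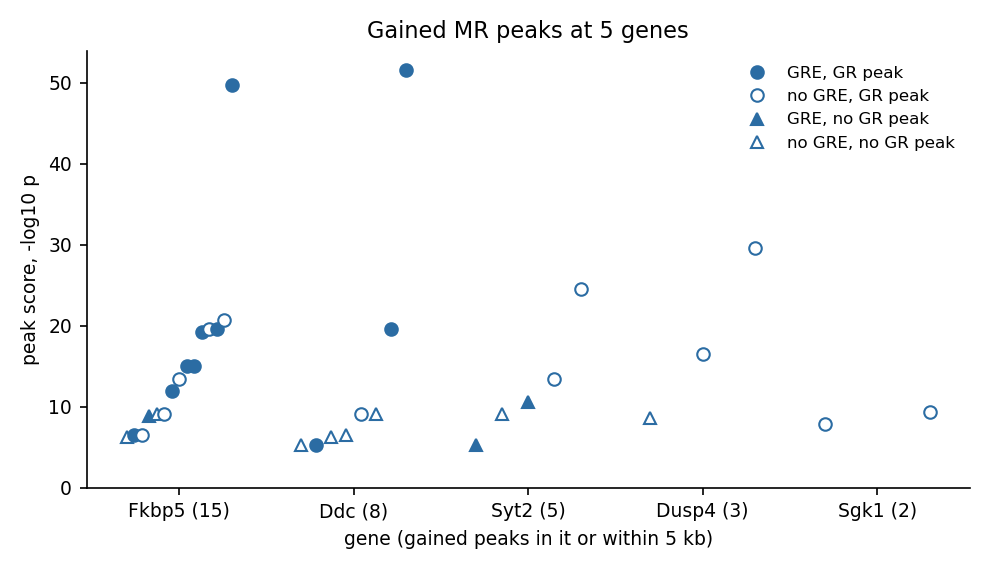
Strength (−log10 p) of every gained MR peak in or within 5 kb of 5 genes; filled symbols have a GRE within 100 bp of the summit, circles are covered by a GR peak after CORT and triangles are not. Fkbp5 and Ddc each have 1 site far above the others, at 49.7 and 51.7, and the 2 Sgk1 sites lie at 7.83 and 9.34.

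Border pairs gave a second reading of the same libraries. MACE reported 3285 pairs for MR after CORT and 1332 after vehicle, against 5767 and 6351 in the inputs after CORT and vehicle. Their median size was 38, 45, 62 and 62 bp in that order. Of the MR pairs after CORT, 1674 lay inside gained peaks (51.0%). Of the MR vehicle pairs only 57 did (4.28%), and of the input pairs 64 (1.11%) and 58 (0.913%). Gained peaks were picked from these same libraries, as called after CORT against input and not called after vehicle. The contrasts with vehicle and input pairs, here and below, are therefore partly fixed by that choice and are no separate evidence of gain.

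A border pair marked few of the gained peaks, and mainly the strong ones. After CORT 1476 of the 14567 gained peaks held one (10.1%, interval 9.65 to 10.6), against 0.357% with pairs of MR after vehicle and 0.343% and 0.330% with those of the inputs. In the strongest of the 5 groups of gained peaks the share was 29.6% (interval 27.99 to 31.3) and in the weakest 2.06% (interval 1.60 to 2.64). The other 3 lists of pairs stayed between 0.137% and 0.618% in every group. Location made little difference, with 9.91% to 10.7% over the classes.

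The share also varied by chromosome. On chromosomes 3 to 9 and X it was 2.90% to 6.31%, and together 261 of 6157 gained peaks held a pair (4.24%, interval 3.76 to 4.77). On chromosomes 1, 2 and 10 to 19 it was 9.32% to 16.8%, and on the other chromosomes, Y included, 1197 of 8352 peaks held one (14.3%, interval 13.6 to 15.1). These groups of chromosomes were formed after their shares were seen and are a description. The strongest of the 5 groups reached 15.5% on the former and 40.4% on the latter. Gained peaks with a GRE (38.9% and 40.8%) and with a GR peak (47.5% in both) did not differ to this degree. The density of MR pairs after CORT was 0.200 to 0.362 per Mb on chromosomes 3 to 7 and 1.82 and 1.13 per Mb on chromosomes 8 and 9, against 1.28 and 2.28 per Mb on chromosomes 1 and 2. MR pairs after vehicle were also few on chromosomes 3 to 7, at 4 to 27 each, against 95 and 88 on chromosomes 1 and 2. Input pairs after CORT were at 0.687 to 2.63 per Mb on chromosomes 3 to 7, against 1.95 and 1.31 on chromosomes 1 and 2. Whether the list of MR pairs after CORT is complete on chromosomes 3 to 7 cannot be told from the file, and the 10.1% over all chromosomes rests on it.

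**Figure D5:**
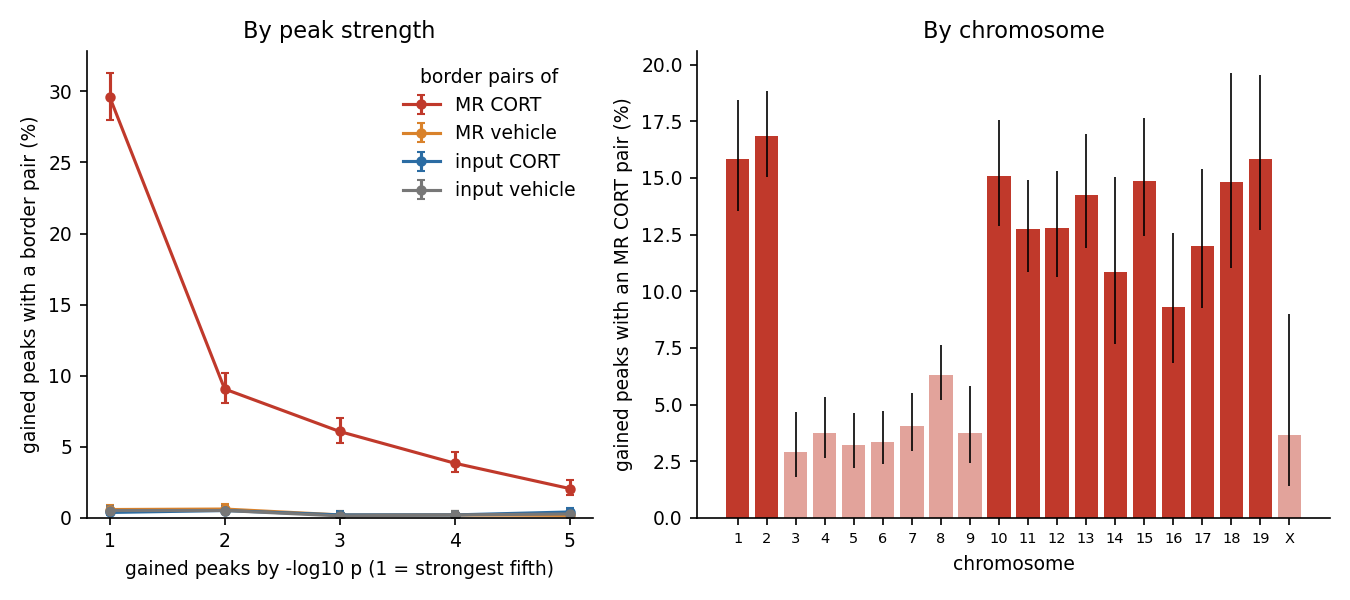
Left, share of gained MR peaks in percent that hold a border pair, in 5 equal groups from the strongest (1) to the weakest (5), for the pairs of 4 libraries; right, the same share for MR pairs after CORT by chromosome, without Y, with chromosomes 3 to 9 and X in a lighter colour. Lines are 95% Wilson intervals, and the MR CORT share falls from 29.6% to 2.06% while the other lists stay at or below 0.618%. The peaks were picked from calls in the MR CORT library, so a higher share for its pairs is partly built in.

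Of the pairs after CORT, 2852 overlapped no vehicle pair and lay outside receptor exons. Inside gained peaks lay 1629 of these (57.1%), and an input pair overlapped 0.737% of them. Of the 1223 outside gained peaks an input pair overlapped 14.9%. Gained peaks with a pair had a GRE more often, at 47.5% (interval 45.0 to 50.1) against 39.2% (interval 38.3 to 40.0) without. The difference was present on chromosomes 1, 2, 10 to 19 and Y (48.6%, interval 45.8 to 51.5, against 39.5%, interval 38.4 to 40.7), while on chromosomes 3 to 9 and X the intervals overlap (42.5%, interval 36.7 to 48.6, against 38.7%, interval 37.5 to 40.0). Of the 1476 gained peaks with a pair, 863 were in the strongest of the 5 groups, where 46.4% of all peaks had a GRE. The part of peak strength in the difference was not tested. Where a pair lay over a GRE, in 461 cases, its edges were at a median of 16 bp to the left and 16 bp to the right of the centre of the GRE. The pair enclosed the whole 15-base element in 182 of these (39.5%). The 461 pairs had a median size of 41 bp and were picked for lying over a GRE. Edges to either side of its centre follow in part from that choice.

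Gained sites were unevenly spread over the genome. Chromosome 8 held 1568 gained peaks, or 12.1 per Mb, followed by chromosome 11 with 8.61 and chromosome 2 with 8.21, and X held 0.643. The other autosomes ranged from 2.22 to 7.10 per Mb. Input pairs were also densest on chromosome 8, at 9.97 per Mb after CORT and 11.6 after vehicle, and their part in the MR density was not tested. The read-through gene Gm20388 alone spanned 315 of the gained peaks of chromosome 8 (20.1%), the strongest site of all among them. Of the 12 strongest sites 3 lay on chromosome 8, as did 3 of the 5 strongest distal sites and 2 of the 10 strongest promoter sites. Neighbouring gained summits were a median of 21.4 kb apart, and 21.0% were within 1 kb of the one before on the same chromosome, as in the Fkbp5 and Dusp4 introns. Some windows 1 kb to the side of a summit therefore lie near another gained peak.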

How the data were processed

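ChIP-nexus reads of N2A cells were processed by the authors, who trimmed them by quality, aligned them to mm10 (GRCm38) with Bowtie2, removed barcode duplicates and kept mapping quality above 20. The authors called peaks on combined replicates with MACS2 2.1.1.20160309 at a false discovery rate of 0.05 against input, and border pairs with MACE. Each peak has 2 deposited −log10 columns, for p and for q. The −log10 q stands under a heading for fold enrichment and the summit offset under one for −log10 q. The deposited score is the whole part of 10 times −log10 q. MACE p-values of border pairs, as deposited, reached 0.0500 at most.

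From these lists gained sites, positions, motifs and pairs were counted. Peak starts were read as counted from 0 and are printed from 1. Genes were the 22028 protein-coding genes of GENCODE M21, placed by the summit. Sequence was read from RefSeq GRCm38.p6 with pysam 0.24.0. Other software was Python 3.11.15, numpy 2.4.6, pandas 2.3.3, scipy 1.17.1 and matplotlib 3.10.9. The counting methods were tested on simulated data. Ties in −log10 p were ordered by −log10 q, then position. All 194 gene symbols of the 12 lists matched. Named genes are those at the 12 strongest gained sites, the 10 strongest promoter and 5 strongest distal sites, the 10 with most gained summits, up to 4 per list by strongest site, Fkbp5, Syt2, Ddc, Sgk1 and Dusp4, and genes at vehicle peaks. Further genes were named after their values were seen: those without a site, Per1, Tsc22d3, Hsd11b2, Scnn1a, Scnn1g, Cry2, Stk39, and genes at full GREs. Genes that hold other protein-coding genes were left out of the 10 with most gained summits. The sites and the lists were chosen with earlier results of these data known. A few listed genes are not reported here. Data after washout were not used here.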

Additional observations from a re-analysis of the deposited data

How the results depend on the processing

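Of 28 alternative settings over 7 results, 16 left the value within its range, which was 1.5 times for a count and the 95% interval for a share. Requiring −log10 q of at least 5 left 7759 gained peaks, of which 42.0% had a GRE. The promoter share was 4.50% within 500 bp and 20.8% within 5 kb. With the starts of all annotated genes in place of protein-coding ones it was 13.1%, and the distal share was 8.96%. The GRE share was 11.5% with at most 2 mismatches, 82.2% with at most 4, 30.5% within 50 bp of the summit and 51.6% within 200 bp. The looser limit adds little contrast: best matches of exactly 4 mismatches were at 42.2% of gained peaks and in 40.6% of windows 1 kb to the sides. Those of exactly 2 were at 9.46% and in 1.68%. No comparison windows are given for the 50-bp and 200-bp limits. A border pair p of at most 0.001 left 800 gained pairs. Without chromosomes 3 to 9 and X, 14.4% of gained peaks, scaffolds included, held a pair. This setting and those without chromosome 8 were chosen after seeing the data. Without chromosome 8 the promoter share was 7.80%, the distal share 29.95%, the GRE share 40.6%, the pair share 10.6% and the count of genes 4133. No paired analysis was possible because the 3 replicates of each condition were pooled into 1 list, and for the same reason no replicate could be left out. Depth, which decides how many weak peaks pass the threshold, is not held in the peak and border files, and the ratio of 14638 to 73 peaks is therefore not a ratio of binding.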
